A study of Callithrix jacchus with 54 samples.

Results

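The genes ZIC1, ZIC2, ZIC5, SOX3, POU3F1, POU3F2, EN2, ELAVL3 and OTX2 are best known from the developing nervous system, and they were followed through the culture of marmoset germ cells from embryonic stem cells. They were chosen by name, as the entries of the transcript table with these symbols, and they are 9 of its 14812 genes. All 9 are among the 11197 genes that reached a log2(TPM + 1) of at least 1.5 in at least 1 library, where TPM is the number of transcripts scaled to a fixed total per library. POU3F1 and OTX2 stayed below 5 TPM in every library.

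ZIC genes encode zinc-finger transcription factors of the neural plate, the dorsal neural tube and the neural crest, and several of them are also transcribed in pluripotent cells. SOX3 belongs with SOX2 to the SOXB1 factors, which keep neural progenitors undifferentiated, and the POU factors POU3F1 and POU3F2 act in the neural ectoderm and in later neural cells. OTX2 patterns the fore- and midbrain and takes part in the exit from naive pluripotency, EN2 marks the boundary region of midbrain and hindbrain, and ELAVL3 is an RNA-binding protein of the Hu family, found mainly in neurons.

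The study induced primordial germ cell-like cells (PGCLCs) from the marmoset embryonic stem cell line CMES40 (cjESCs), and RNA was sequenced from 27 conditions with 2 libraries each, 54 in all. Every cell carried the reporters BLIMP1-tdTomato and NANOS3-eGFP. The transgenic (TG) cells also carried rtTA, tetO-BLIMP1, SOX17-GR and DD-TFAP2C, and the remaining cells had no such transgenes. Starting cells were cjESCs in the medium DK20FA (TG cells) and in the medium PESFA (cells without the transgenes), grown on mouse embryonic fibroblasts and sorted as TRA-1-60(+), a surface marker of pluripotent cells. TG cells were cultured for 12, 24, 48 or 96 h in BLSE, which holds BMP4, LIF, SCF and EGF with a Rock inhibitor. Other TG cells received enforced SOX17, made active by dexamethasone, in BLSE (SOX17 + BLSE) or in the same mixture without BMP4 (SOX17 + LSE). The PESFA cells were pre-treated for 24 h with the WNT agonist IM12 and activin A (Pre, sorted TRA-1-60(+)), then cultured in BLSE with the WNT inhibitor IWR1 (BLSE + IWR1) or with IWR1 and BMS493, an inverse agonist of retinoic acid receptors (BLSE + IWR1 + BMS493). Cells up to 48 h were taken whole, as were those in BLSE at 96 h, whereas the other cells at 96 h and the BLSE + IWR1 cells at day 6 were sorted as BLIMP1-tdTomato(+). Day 6 PGCLCs were aggregated with mouse gonadal somatic cells (xrOvaries), and tdTomato(+) cells were taken from these at days 20, 40 and 70. A single line underlies all of it, and medium, transgenes and pre-treatment change together between the routes from DK20FA and from PESFA, so these cannot be told apart.

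Levels are given in TPM as the values of both libraries of a condition, in the order replicate 1 and replicate 2, and the distance between them is the only measure of spread. Read depth is not part of a TPM table, so no detection limit can be attached to a level of 0 TPM. Each condition was compared with the cjESCs of its own line by limma on log2(TPM + 1), with p-values adjusted over the 11197 genes, and differences are log2 differences on that scale, on which the added 1 shrinks the differences of genes at low levels. For a call, a gene had to differ more than 4-fold, the mean log2 level of the conditions compared had to exceed 1.5, and its adjusted p had to lie under 0.01. The words rose and fell are kept for an adjusted p under 0.01, whether or not the other criteria were met.

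The libraries of BLSE + IWR1 + BMS493 at 48 h disagreed on several of these genes. ZIC2 stood at 127 and 5.88 TPM in them, ZIC5 at 14.6 and 1.48 TPM and SOX3 at 22.0 and 45.7 TPM. The mesendoderm gene MIXL1 differed in the same direction as the ZIC genes, at 361 and 16.4 TPM, as did EOMES, at 68.3 and 6.52 TPM. Over the genes that passed the filter, 46 differed more than 4-fold between these libraries on the log2(TPM + 1) scale, against 30 in BLSE + IWR1 at 48 h, 113 at xrOvary day 20 and 2 to 39 in the other conditions. Where leaving out 1 of these libraries took a gene across the threshold, the result is given with and without it.

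**Figure D1:**
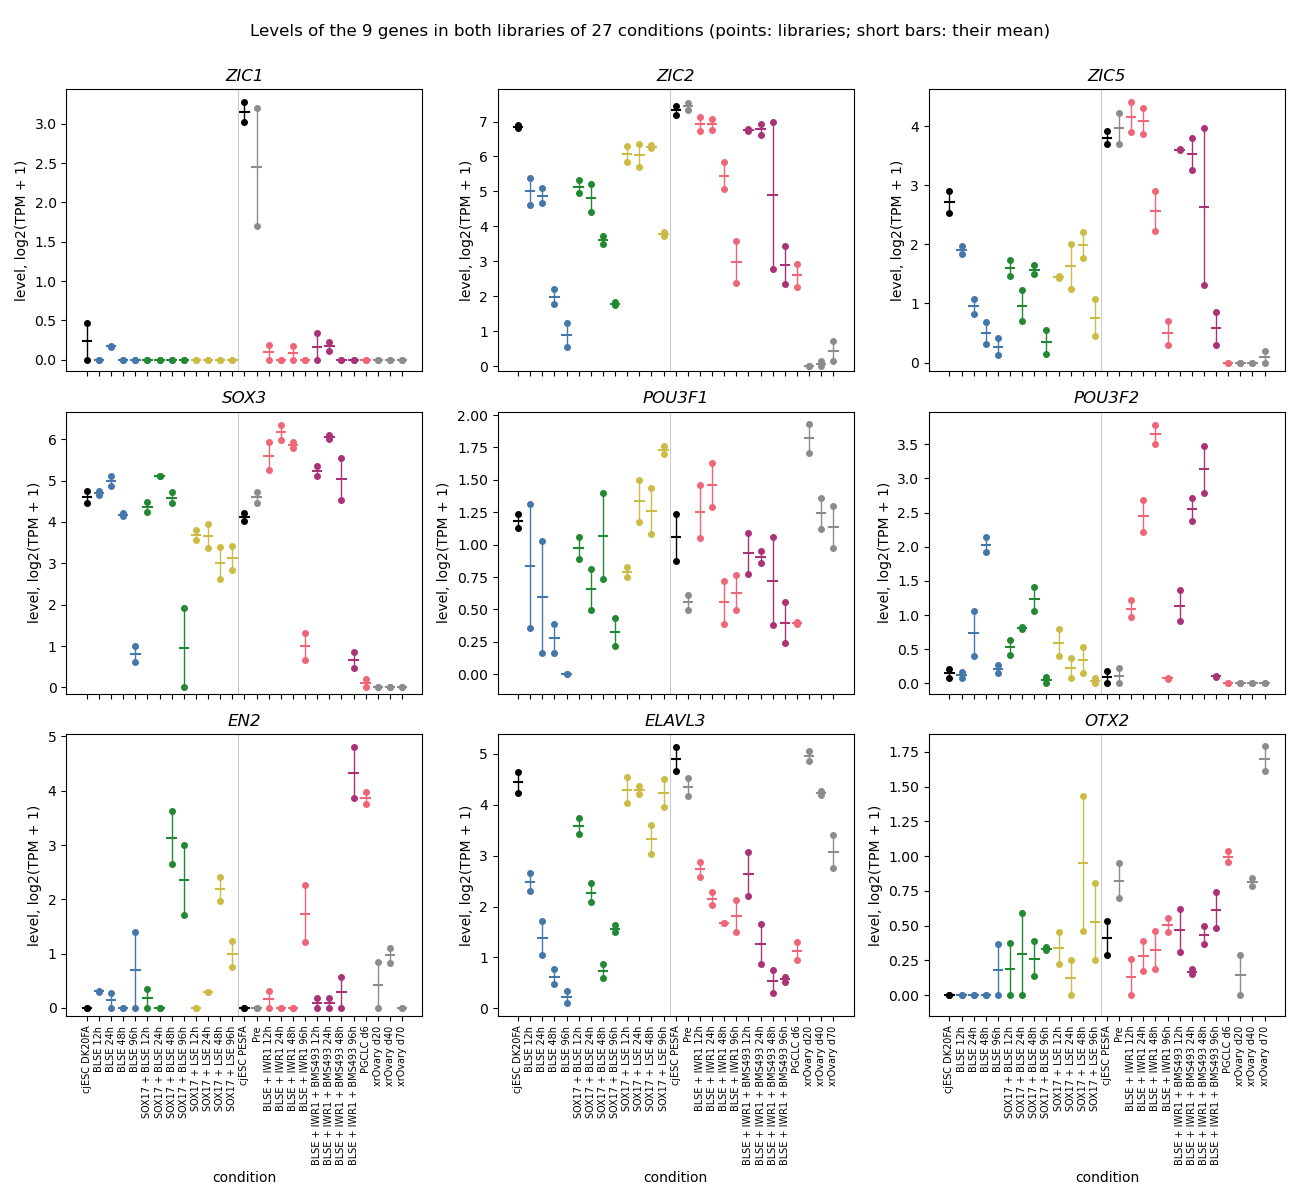
Levels of the 9 genes on the log2(TPM + 1) scale (vertical axis) in 27 conditions (horizontal axis), with a point for each of the 2 libraries of a condition and a short bar at their mean. The grey vertical line precedes the PESFA cjESCs, and the DK20FA cjESCs and the cultures from them stand to its left. ZIC2 and SOX3 reach high levels early and are near 0 in xrOvaries, whereas EN2 is at 0 in both cjESCs and is highest at 96 h in BLSE + IWR1 + BMS493.

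Whether the cells with these genes look neural was checked against lists of marker genes. Of 12 genes of neuronal differentiation, NEUROD1, TUBB3 and MAP2 are not in the table, SYT1 was listed at 0 in every library, and DCX and NCAM1 stayed below 1 TPM everywhere. NEUROG1 did not exceed 2.13 TPM. The 2 abundant genes of that list, STMN2 and INA, were already high in undifferentiated cells: INA stood at 259 and 218 TPM in DK20FA cjESCs. The list summed to 305 and 354 TPM there and to 81.8 and 124 TPM in BLSE + IWR1 at 48 h, and in xrOvary cells to 295 and 319 at day 20, 313 and 355 at day 40 and 289.6 and 297 at day 70.

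Among 10 neural progenitor genes, SOX11 is not in the table, and SOX1 and HES5, the more specific markers of neural progenitors, were below 1 TPM in every library. SOX2, which neural and pluripotent cells share, was at 235 and 232 TPM in PESFA cjESCs, and NES and MSI1 were also present from the start. Of 16 genes that pattern the neural plate and brain, PAX6, SIX3 and PAX8 are missing from the table, SIX6 and LHX5 stayed below 1 TPM, and RAX, LHX2, GBX2, PAX2, PAX5, LMX1A and LMX1B stayed below 5 TPM. Neural crest genes were led by SOX10 and FOXD3, which are also on in cjESCs, while PAX7 and TFAP2B stayed below 5 TPM and PAX3 is not in the table. The defining markers of neural cells and neurons that could be measured were thus at or near 0, and the 9 genes are described here by name and not as a sign of neural cells.

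**Figure D2:**
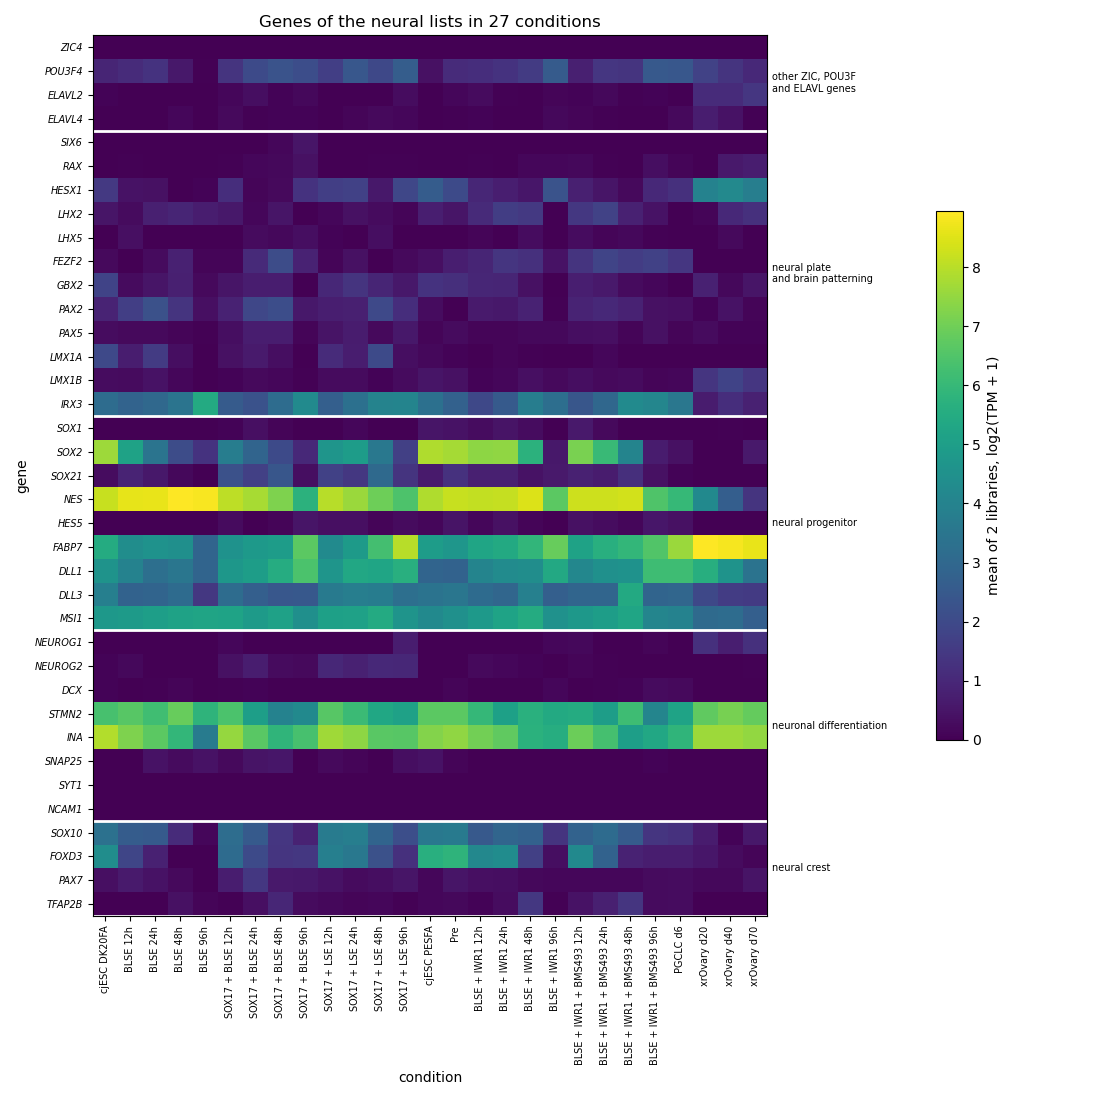
Mean log2(TPM + 1) of 2 libraries (colour) for genes of 5 neural lists (rows) in 27 conditions (columns), with white lines between the lists. SYT1, ZIC4 and NCAM1 are dark throughout, whereas SOX2, NES, STMN2 and INA are bright in cjESCs already.

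Over the 25 comparisons with the cjESCs of the same line, 61 of 225 tests of the 9 genes were called, 6 higher and 55 lower, beside 4.06% of the 279925 tests of all genes, and 86 had an adjusted p under 0.01, 20 higher and 66 lower, beside 25.7% of those tests. ELAVL3 was called lower in 15 comparisons, ZIC1 and ZIC2 in 12 each, and ZIC5 and SOX3 in 8 each. The 12 calls of ZIC1 are all against PESFA cjESCs, and it passed the filter through these and Pre alone. Higher calls came from EN2 in 3 comparisons, POU3F2 in 2 and SOX3 in 1, whereas POU3F1 and OTX2 were never called. With a pseudocount of 0.1, which lowers the mean log2 level of genes near 0, 31 tests were called, and with fits of only the libraries compared 39. Over all genes 11351 tests were called, and these settings gave 10261 and 6720. In bulk RNA, fewer cells that express a gene and less of its RNA per cell cannot be told apart.

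In BLSE alone, the calls built up with time. At 12 h, limma called 0 of the 9 genes, with 2 at an unadjusted p under 0.05, beside 0.741% of all genes called. At 24 h, 1 was called, ELAVL3, beside 1.22% of all genes. At 48 h, ELAVL3, ZIC2 and ZIC5 were called, 3 of 9 beside 3.38%, and the median difference of the 9 was -0.43 against -0.01 over all genes. At 96 h it was ELAVL3, SOX3 and ZIC2, 3 of 9 beside 6.12%. All of these were lower than in DK20FA cjESCs. Leaving out DK20FA replicate 2 or BLSE 12 h replicate 1 turned the 12 h count from 0 to 1, and leaving out DK20FA replicate 1 or BLSE 96 h replicate 1 raised the 96 h count to 4.

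With SOX17 and BLSE, EN2 joined as a gene that was higher. The 12 h comparison called 0 of 9 by limma, with 3 at an unadjusted p under 0.05, beside 1.02% of all genes. ELAVL3 was the 1 gene called at 24 h, beside 1.8%. The counts were 3 at 48 h, EN2 higher and ELAVL3 and ZIC2 lower, beside 3.48% of all genes, and 4 at 96 h, ELAVL3, SOX3, ZIC2 and ZIC5, all lower, beside 6.73%. The median difference at 96 h was -0.86 for the 9 genes and 0.14 for all genes. The 24 h count became 0 without DK20FA replicate 1, the 48 h count 2 without SOX17 + BLSE 48 h replicate 2, and the 96 h count 3 without DK20FA replicate 2.

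Without BMP4 beside SOX17, few of the 9 genes were called. By limma, 0 of 9 were called at 12 h, with 2 at an unadjusted p under 0.05, beside 0.768% of all genes, and 0 at 24 h, with 2, beside 0.902%. The count was also 0 at 48 h, with 4 at an unadjusted p under 0.05, beside 1.46%. ZIC2 was the 1 gene called at 96 h, lower, beside 4.57%, and the median difference of the 9 was -0.21, against 0.15 for all genes. That count was 2 without DK20FA replicate 1 or without SOX17 + LSE 96 h replicate 1.

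The pre-treatment alone gave no call. Limma called 0 of them in Pre, with 1 at an unadjusted p under 0.05, beside 0.0357% of all genes. In BLSE + IWR1, ELAVL3 and ZIC1 were lower at each time and other genes joined them. These were the 2 genes called at 12 h, beside 1.74%, and at 24 h SOX3, higher, made it 3 of 9 beside 2.21%. At 48 h POU3F2, higher, took the place of SOX3, 3 of 9 beside 3.13%. At 96 h ELAVL3, SOX3, ZIC1, ZIC2 and ZIC5 were called, all lower, 5 of 9 beside 6.57%, and the median difference was -3.09 against 0.17 for all genes. Leaving out PESFA replicate 1 lowered the count to 1 at 12 h and to 2 at 24 h, as did BLSE + IWR1 24 h replicate 1 at 24 h.

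Adding BMS493 gave a like set of calls. ELAVL3 and ZIC1 were called lower at 12 h, 2 of 9 beside 1.61% of all genes, and the same 2 at 24 h beside 2.42%. The 48 h comparison called POU3F2 higher and ELAVL3, ZIC1 and ZIC2 lower, 4 of 9 beside 3.82%. That count was 5 without replicate 1 of the condition and 2 without its replicate 2, and 3 without either PESFA library. At 96 h, EN2 was called higher and ELAVL3, SOX3, ZIC1, ZIC2 and ZIC5 lower, 6 of 9 beside 6.87%. The 12 h count was 1 without replicate 2 of that condition, and the 24 h count 3 without PESFA replicate 2.

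Day 6 PGCLCs and xrOvary cells had lower ZIC and SOX3 levels than PESFA cjESCs. In day 6 PGCLCs, EN2 was called higher and ELAVL3, SOX3, ZIC1, ZIC2 and ZIC5 lower, 6 of 9 beside 7.99% of all genes. In xrOvary cells, SOX3, ZIC1, ZIC2 and ZIC5 were the 4 genes called, all lower, at day 20 beside 10.4%, at day 40 beside 10.7% and at day 70 beside 11.7%. The median difference of the 9 genes was -0.27, -0.68 and -1.83 at days 20, 40 and 70, against 0.00, -0.05 and -0.12 over all genes. No median is given at day 6, at 96 h with BMS493 or at 96 h in BLSE, as it falls on a gene listed at 0 TPM there. The day 70 count was 5 without PESFA replicate 2 or without day 70 replicate 2. The gonadal somatic markers FOXL2, AMH and KITLG summed to 2.64 and 2.34 TPM at day 20, with NR5A1 at 0 and WT1 and GATA4 not in the table. The reads were aligned to the marmoset genome, so these levels cannot tell how much RNA of the mouse partner cells was present.

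ZIC2, a zinc-finger factor of the neural plate that pluripotent cells also transcribe, was the most abundant of the 9 genes in cjESCs. It stood at 117 and 112 TPM in DK20FA, at 174 and 144 TPM in PESFA and at 161 and 186 TPM after the pre-treatment, its highest level of the 27. In BLSE it was at 40.9 and 23.7 TPM at 12 h, 33.3 and 24.5 at 24 h, 3.62 and 2.43 at 48 h and 0.45 and 1.34 at 96 h. The libraries of BLSE lay below those of DK20FA cjESCs at each time, and ZIC2 fell at 48 h (log2 difference -4.86, adjusted p = 5.34e-08) and at 96 h (-5.97, adjusted p = 2.53e-10). With SOX17 and BLSE it was at 38.8 and 30.1, 35.8 and 20.4, 12.2 and 10.3 and 2.58 and 2.35 TPM at 12, 24, 48 and 96 h, and it fell by 3.25 at 48 h (adjusted p = 4.58e-05) and fell by 5.06 at 96 h (adjusted p = 7.72e-09). With SOX17 and LSE it was at 78.0 and 55.8, 81.3 and 51.2, 79.7 and 74.1 and 12.3 and 13.4 TPM, and the fall reached the threshold at 96 h (-3.06, adjusted p = 7.46e-05). ZIC2 was thus kept longer in the TG cells that lacked BMP4, and the test of BMP4 beside SOX17 is given further on.

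On the route from PESFA, ZIC2 was still abundant at 24 h, though below PESFA cjESCs in every library. In BLSE + IWR1 it was at 104 and 138 TPM at 12 h, 107 and 134 at 24 h, 32.6 and 56.0 at 48 h and 4.20 and 11.1 at 96 h. With BMS493 it was at 106 and 110.0, 122 and 96.5, 127 and 5.88 and 9.77 and 4.06 TPM at the same times. By 96 h the libraries of each lay far below those of PESFA cjESCs, and ZIC2 fell in BLSE + IWR1 (-4.33, adjusted p = 1.80e-07) and with BMS493 (-4.44, adjusted p = 1.12e-07). The fall with BMS493 at 48 h (-2.43, adjusted p = 0.00151) rests on replicate 2, without which it is -0.32 (adjusted p = 0.628). Without PESFA replicate 1 or 2 its adjusted p was 0.0176 and 0.0101. Day 6 PGCLCs had 3.84 and 6.62 TPM (-4.72, adjusted p = 2.79e-08). ZIC2 was nearly absent from xrOvary cells. It was listed at 0 in both libraries of day 20, at 0 and 0.11 TPM at day 40 and at 0.64 and 0.11 TPM at day 70 (-6.89, adjusted p = 2.52e-12). Of the 26 neighbours in the order of its 27 levels, 20 overlapped in their libraries, and a gap lay between PESFA cjESCs and the next level, BLSE + IWR1 at 12 h.

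ZIC5 encodes a zinc-finger factor related to ZIC2, and in the RefSeq gene table of a later marmoset assembly no gene lies between ZIC2 and ZIC5. It was weaker, with its highest mean in BLSE + IWR1 at 12 h, 14.0 and 20.2 TPM, followed without a gap by 24 h at 13.6 and 18.7 TPM, Pre at 12.0 and 17.8 TPM and PESFA cjESCs at 14.1 and 11.9 TPM. DK20FA cjESCs had less, 4.80 and 6.50 TPM. In BLSE its levels were 2.92 and 2.58, 1.11 and 0.77, 0.24 and 0.6 and 0.09 and 0.33 TPM at 12, 24, 48 and 96 h, with every library below those of DK20FA cjESCs. It fell in BLSE at 48 h (-2.23, adjusted p = 8.83e-05) and at 96 h (-2.45, adjusted p = 1.20e-05). The fall at 24 h (-1.77, adjusted p = 0.00242) was lost without either DK20FA library (adjusted p = 0.011 and 0.034) or either BLSE 24 h library (adjusted p = 0.0104 and 0.0357).

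With SOX17, ZIC5 was at 2.34 and 1.77, 1.33 and 0.62, 2.13 and 1.81 and 0.46 and 0.11 TPM in BLSE and 1.70 and 1.76, 3.03 and 1.37, 3.65 and 2.40 and 1.1 and 0.37 TPM in LSE. At 48 h in BLSE, the libraries with SOX17 lay above those without it (1.07, adjusted p = 0.0607). It fell at 96 h in SOX17 + BLSE (-2.37, adjusted p = 1.37e-05) and in SOX17 + LSE (-1.96, adjusted p = 2.58e-04, or 0.0117 without SOX17 + LSE 96 h replicate 2). Its fall at 24 h in SOX17 + BLSE (-1.76, adjusted p = 0.00178) was lost without DK20FA replicate 2 (-1.58, adjusted p = 0.0272) or SOX17 + BLSE 24 h replicate 2 (-1.5, adjusted p = 0.0421). On the PESFA route it dropped late. BLSE + IWR1 had 3.70 and 6.48 TPM at 48 h and 0.23 and 0.63 at 96 h (-3.30, adjusted p = 3.86e-08). With BMS493 it was at 11 and 11.3 TPM at 12 h, 13 and 8.57 at 24 h, 14.6 and 1.48 at 48 h and 0.81 and 0.23 at 96 h (-3.22, adjusted p = 5.98e-08). The 48 h difference with BMS493 was -1.16 (adjusted p = 0.0292) and -2.49 without replicate 1 of that condition (adjusted p = 1.08e-06). Germ cells beyond that had almost none. ZIC5 was listed at 0 TPM in both libraries of day 6 (adjusted p = 1.51e-09), of xrOvary day 20 (adjusted p = 1.12e-09) and of day 40 (adjusted p = 1.07e-09), and it was at 0 and 0.15 TPM at day 70. In the order of its levels 22 of 26 neighbours overlapped.

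ZIC1, a factor of the dorsal neural tube that mesenchymal cells also express, was a gene of the starting cells in PESFA. Those had 8.69 and 7.11 TPM and Pre 2.25 and 8.21 TPM, against 0 and 0.38 TPM in DK20FA cjESCs. No library of another condition exceeded the 0.38 TPM of DK20FA replicate 2, and 19 of the 27 conditions were listed at 0 in both. Low values were seen in BLSE at 24 h, 0.12 and 0.13 TPM, in BLSE + IWR1 at 12 h, 0.14 and 0 TPM, and at 48 h, 0 and 0.13 TPM, and with BMS493 at 12 h, 0.26 and 0 TPM, and at 24 h, 0.08 and 0.17 TPM. Between the cjESCs, ZIC1 was the 1 of 9 genes called, higher in PESFA (log2 difference 2.92, adjusted p = 1.16e-11), beside 2.04% of all genes. ZIC1 passed the filter through PESFA cjESCs and Pre alone. This call and the falls from PESFA cjESCs thus rest on the cells that let the gene through, and their adjusted p are no independent support. With a pseudocount of 0.1, or with fits of only the libraries compared, 0 of 9 were called. Over all genes 228 were called between the cjESCs, and these settings gave 196 and 0. Against PESFA cjESCs ZIC1 fell in all 12 comparisons of cells cultured beyond the pre-treatment, from -2.98 with BMS493 at 12 h (adjusted p = 7.05e-12) to cells listed at 0. In Pre the difference was -0.70 (adjusted p = 0.169) and, without Pre replicate 2, -1.45 (adjusted p = 1.81e-05).

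Fibroblast genes were high in PESFA cjESCs and Pre, the libraries with ZIC1, and also in BLSE at 96 h. The 5 markers COL1A1, COL1A2, COL3A1, DCN and LUM summed to 2891 and 1652 TPM in PESFA cjESCs and 2433 and 4639.7 TPM in Pre, with COL1A1 the most abundant, at 1598 and 878 and 1385 and 2715 TPM. In DK20FA cjESCs they summed to 207 and 243 TPM, with COL1A2 the most abundant, and 4 of the 5 were called higher in PESFA, COL1A1, COL1A2, COL3A1 and LUM. In BLSE + IWR1 the sum was 195 and 117 TPM at 12 h, 84.4 and 97.0 at 24 h and 90.9 and 93.5 at 48 h, and at day 6 it was 32.4 and 36.3 TPM. None of the 5 was at 0 in cjESCs or Pre, although these cells were sorted as TRA-1-60(+). The Pre library with more ZIC1 also had the larger sum. In BLSE at 96 h the sum was 1828 and 1157 TPM, with DCN the most abundant, DCN and LUM called higher and COL1A1 and COL1A2 called lower than in DK20FA cjESCs, and ZIC1 was listed at 0 in both libraries. The part of fibroblasts in the ZIC1 result was not tested.

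SOX3, the SOXB1 factor of neural progenitors, rose and then fell on the PESFA route. It stood at 15.3 and 17.5 TPM in PESFA cjESCs and 25.3 and 21.1 TPM in Pre. In BLSE + IWR1 it was at 60.1 and 37.3 TPM at 12 h, 80.5 and 62.2 at 24 h, 60.2 and 54.4 at 48 h and 1.5 and 0.59 at 96 h. With BMS493 it was at 33.8 and 39.5, 68.0 and 63.2, 22.0 and 45.7 and 0.81 and 0.38 TPM at these times. All libraries from 12 to 48 h lay above those of PESFA cjESCs, and all at 96 h lay below. The level at 24 h in BLSE + IWR1 was the highest of the 27, and SOX3 rose there (2.04, adjusted p = 3.09e-05), at 48 h (1.74, adjusted p = 1.72e-04) and with BMS493 at 24 h (1.94, adjusted p = 5.97e-05). Its rise at 12 h (1.48, adjusted p = 0.00186) was lost without PESFA replicate 1 (adjusted p = 0.0201), PESFA replicate 2 (0.0137) or BLSE + IWR1 12 h replicate 1 (1.14, adjusted p = 0.0585). With BMS493 at 48 h the difference was 0.91 (adjusted p = 0.0422) and, without replicate 1, 1.42 (adjusted p = 0.00854).

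By 96 h SOX3 had fallen in BLSE + IWR1 (-3.12, adjusted p = 3.05e-09) and with BMS493 (-3.46, adjusted p = 2.98e-10). Day 6 PGCLCs had 0 and 0.15 TPM (-4.02, adjusted p = 6.26e-12). In xrOvary cells SOX3 was listed at 0 in both libraries at day 20 (adjusted p = 2.37e-12), day 40 (2.13e-12) and day 70 (1.85e-12). The DK20FA route held it at a steadier level until 48 h. SOX3 was at 25.9 and 21.0 TPM in DK20FA cjESCs, and in BLSE at 24.1 and 26.0, 28.3 and 33.5, 16.7 and 17.5 and 0.99 and 0.54 TPM at 12, 24, 48 and 96 h, a fall at 96 h (-3.80, adjusted p = 4.42e-11). With SOX17 and BLSE it was at 17.8 and 21.4, 33.7 and 33.5, 20.9 and 25.5 and 2.79 and 0 TPM, again a fall at 96 h (-3.64, adjusted p = 8.82e-11).

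With SOX17 and LSE, SOX3 was at 13.1 and 10.8 TPM at 12 h, 9.41 and 14.6 at 24 h, 5.18 and 9.59 at 48 h and 6.19 and 9.63 at 96 h, below DK20FA cjESCs in every library, and still measurable at 96 h. It fell there at 48 h (-1.59, adjusted p = 0.00103) and 96 h (-1.48, adjusted p = 8.84e-04). The fall at 48 h was lost without DK20FA replicate 1 (adjusted p = 0.0235) or SOX17 + LSE 48 h replicate 1 (0.0577), and that at 96 h without DK20FA replicate 1 (0.0174) or SOX17 + LSE 96 h replicate 1 (0.031). SOX3 had the fewest overlaps of the 9 genes in the order of its levels, 18 of 26.

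POU3F2, a POU factor of neural progenitors and neurons, was almost off in cjESCs, at 0.06 and 0.16 TPM in DK20FA, 0.14 and 0 in PESFA and 0.17 and 0 in Pre. In BLSE + IWR1 it was at 0.96 and 1.32 TPM at 12 h, 5.44 and 3.66 at 24 h, 10.4 and 12.8 at 48 h and 0.05 and 0.06 at 96 h. With BMS493 it followed the same course, at 0.88 and 1.57, 4.20 and 5.57, 5.91 and 10.1 and 0.08 and 0.07 TPM. Each library from 12 to 48 h exceeded those of PESFA cjESCs, and the peak at 48 h in BLSE + IWR1 stood above the next level, that with BMS493, without overlap. POU3F2 rose in BLSE + IWR1 at 24 h (2.36, adjusted p = 4.96e-10) and 48 h (3.55, adjusted p = 1.20e-14), and with BMS493 at 24 h (2.45, adjusted p = 1.90e-10) and 48 h (3.04, adjusted p = 5.83e-13). The smaller rise at 12 h in BLSE + IWR1 (1.0, adjusted p = 0.00129) was lost without PESFA replicate 2 (adjusted p = 0.0276) or BLSE + IWR1 12 h replicate 2 (0.0307). That with BMS493 at 12 h (1.04, adjusted p = 9.06e-04) was lost without PESFA replicate 2 (0.0225) or replicate 2 of its own condition (0.0457).

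In TG cells POU3F2 peaked lower and rose at 48 h alone. In BLSE it was at 0.12 and 0.06, 1.09 and 0.32, 3.42 and 2.78 and 0.11 and 0.21 TPM at 12, 24, 48 and 96 h, and it rose at 48 h (1.88, adjusted p = 4.74e-08). With SOX17 and BLSE the levels were 0.56 and 0.33, 0.78 and 0.73, 1.67 and 1.09 and 0 and 0.07 TPM, with a rise at 48 h (1.09, adjusted p = 2.71e-04, or 0.0145 without SOX17 + BLSE 48 h replicate 1). With SOX17 and LSE they were 0.73 and 0.32, 0.29 and 0.06, 0.11 and 0.45 and 0.06 and 0 TPM. The gene was listed at 0 in both libraries of day 6 and of each xrOvary day. In the order of levels 21 of 26 neighbours overlapped.

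POU3F1, the other POU factor, stayed low everywhere and was never called. Its highest level was 2.81 and 2.27 TPM at xrOvary day 20, followed by SOX17 + LSE at 96 h with 2.24 and 2.39 TPM, whose libraries overlapped those of day 20. The cjESCs had 1.35 and 1.19 TPM in DK20FA and 0.83 and 1.36 TPM in PESFA, and Pre had 0.41 and 0.53 TPM. In BLSE it dwindled, from 1.49 and 0.28 TPM at 12 h over 0.12 and 1.04 at 24 h and 0.12 and 0.31 at 48 h to a listed 0 in both libraries at 96 h (adjusted p = 7.97e-04, or 0.0117 without DK20FA replicate 1). With SOX17 and BLSE it was at 0.85 and 1.08, 0.76 and 0.41, 1.63 and 0.66 and 0.35 and 0.16 TPM, and its fall at 96 h (-0.86, adjusted p = 0.00981) was lost when any of the 4 libraries compared was left out, with adjusted p from 0.022 to 0.0743. With SOX17 and LSE it was at 0.68 and 0.77, 1.82 and 1.26 and 1.12 and 1.71 TPM up to 48 h. POU3F1 showed no steady course on the PESFA route. In BLSE + IWR1 the levels were 1.75 and 1.07, 2.09 and 1.45, 0.31 and 0.65 and 0.7 and 0.41 TPM, and with BMS493 0.71 and 1.13, 0.93 and 0.81, 0.3 and 1.08 and 0.47 and 0.18 TPM. Day 6 had 0.31 and 0.32 TPM, day 40 1.56 and 1.18 TPM and day 70 0.96 and 1.46 TPM. Of 26 neighbours in its order 23 overlapped.

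EN2, the engrailed factor of the midbrain and hindbrain boundary, was listed at 0 TPM in both cjESCs and in Pre, and it appeared late, mainly in cells sorted for the BLIMP1 reporter or given SOX17. Its highest level was 27 and 13.5 TPM in BLSE + IWR1 + BMS493 at 96 h (adjusted p against PESFA cjESCs = 4.03e-12), followed by day 6 PGCLCs with 12.4 and 14.8 TPM (adjusted p = 5.53e-11), whose libraries overlapped it. BLSE + IWR1 at 96 h had 1.32 and 3.78 TPM (adjusted p = 1.79e-04, or 0.0233 without its replicate 2). No log2 difference is given against cells at 0. Among TG cells, SOX17 + BLSE had 5.25 and 11.3 TPM at 48 h (adjusted p = 2.07e-08) and 2.29 and 7.02 TPM at 96 h (adjusted p = 1.94e-06). SOX17 + LSE had 2.93 and 4.34 TPM at 48 h (adjusted p = 3.14e-05) and 0.68 and 1.36 TPM at 96 h. BLSE alone had none at 48 h, listed at 0 in both libraries, and 0 and 1.62 TPM at 96 h, an adjusted p of 0.146, or 0.00917 without BLSE 96 h replicate 1.

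EN2 was low again in xrOvaries, at 0.8 and 0 TPM at day 20 and 0.78 and 1.14 at day 40, and listed at 0 in both libraries at day 70. Earlier cells hardly transcribed it. In BLSE it was at 0.24 and 0.23 TPM at 12 h and 0 and 0.21 at 24 h, and in SOX17 + BLSE at 0.28 and 0 TPM at 12 h and 0 at 24 h. SOX17 + LSE had 0 at 12 h and 0.23 and 0.23 TPM at 24 h. In BLSE + IWR1 it was at 0.24 and 0 TPM at 12 h and at 0 in both libraries at 24 and 48 h, and with BMS493 at 0.14 and 0, 0.14 and 0 and 0.49 and 0 TPM up to 48 h. Of its 26 neighbours in the order of levels 25 overlapped.

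ELAVL3, the neuronal RNA-binding protein, was high in undifferentiated cjESCs and fell in each of the 4 routes with BMP4. It was at 24.1 and 17.9 TPM in DK20FA cjESCs, 34.3 and 24.5 in PESFA cjESCs and 22.0 and 17.2 in Pre. In BLSE it was at 5.31 and 3.96 TPM at 12 h, 1.06 and 2.29 at 24 h, 0.7 and 0.39 at 48 h and 0.26 and 0.08 at 96 h, its lowest level of the 27. It had fallen by 12 h (-1.96, adjusted p = 1.96e-05) and further by 96 h (-4.22, adjusted p = 6.68e-14). With SOX17 and BLSE the levels were 12.4 and 9.72, 3.26 and 4.50, 0.51 and 0.83 and 2.11 and 1.82 TPM, with falls at 24 h (-2.17, adjusted p = 1.19e-06), 48 h (-3.71, adjusted p = 4.71e-12) and 96 h (-2.88, adjusted p = 6.69e-10). With SOX17 and LSE it was at 22.5 and 15.3, 17.6 and 19.6, 7.23 and 11.2 and 21.8 and 14.6 TPM, overlapping the cjESCs at 12, 24 and 96 h. Its fall there at 48 h (-1.12, adjusted p = 0.00692) was lost without DK20FA replicate 1 (0.107), DK20FA replicate 2 (0.0112) or SOX17 + LSE 48 h replicate 1 (-0.83, adjusted p = 0.147).

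On the PESFA route ELAVL3 fell within 12 h. In BLSE + IWR1 it was at 6.37 and 4.99 TPM at 12 h (-2.17, adjusted p = 1.26e-06), 3.06 and 3.87 at 24 h, 2.18 and 2.21 at 48 h and 1.83 and 3.36 at 96 h (-3.09, adjusted p = 1.30e-10). With BMS493 it was at 7.36 and 3.59, 2.17 and 0.84, 0.69 and 0.23 and 0.54 and 0.44 TPM, a difference of -4.33 at 96 h (adjusted p = 2.43e-14). Day 6 PGCLCs had 1.48 and 0.94 TPM (-3.77, adjusted p = 6.96e-13). ELAVL3 was high again in xrOvary cells, highest of all 27 conditions at day 20. It stood there at 27.9 and 32.2 TPM, at 18.2 and 17.2 TPM at day 40 and at 5.77 and 9.57 TPM at day 70. The day 20 libraries overlapped those of PESFA cjESCs, and at day 70 the gene was lower than in cjESCs (-1.83, adjusted p = 3.40e-06). Of the 26 neighbours in its order 22 overlapped.

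OTX2, a factor of the anterior brain and of cells leaving naive pluripotency, was nearly silent throughout. It was listed at 0 TPM in both libraries of DK20FA cjESCs and of BLSE at 12, 24 and 48 h, and it was at 0.22 and 0.45 TPM in PESFA cjESCs and 0.93 and 0.62 TPM in Pre. Its highest level, 2.06 and 2.46 TPM at xrOvary day 70, exceeded PESFA cjESCs (1.29, adjusted p = 1.63e-05), after 0.22 and 0 TPM at day 20 and 0.72 and 0.79 at day 40. OTX2 passed the filter through the day 70 libraries alone, so this adjusted p is no independent support for a high level there. The next highest level was in SOX17 + LSE at 48 h, with 1.70 and 0.38 TPM against the listed 0 of DK20FA cjESCs (adjusted p = 0.00334). That result was lost without DK20FA replicate 1 (adjusted p = 0.0272), DK20FA replicate 2 (0.022) or SOX17 + LSE 48 h replicate 1 (0.271). Day 6 PGCLCs had 1.05 and 0.94 TPM, and the other conditions stayed below 1 TPM in each library. These were 0 and 0.29 TPM in BLSE at 96 h, 0 and 0.3, 0.51 and 0, 0.1 and 0.31 and 0.27 and 0.25 TPM in SOX17 + BLSE, and 0.37 and 0.17, 0.19 and 0 and 0.75 and 0.19 TPM in SOX17 + LSE at 12, 24 and 96 h. OTX2 stayed low with WNT inhibition too. In BLSE + IWR1 it was at 0.2 and 0, 0.31 and 0.13, 0.14 and 0.38 and 0.47 and 0.37 TPM, and with BMS493 at 0.54 and 0.24, 0.11 and 0.14, 0.41 and 0.29 and 0.67 and 0.4 TPM. Of 26 neighbours in its order 23 overlapped.

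The effect of WNT inhibition after pre-treatment was asked by comparing BLSE + IWR1 with BLSE, each as its change from the cjESCs of its own line. SOX3, ZIC2 and POU3F2 were kept or raised more in BLSE + IWR1, whereas ZIC1, above 1 TPM in PESFA cjESCs and Pre alone, lost more. Limma called 0 of 9 genes at 12 h, with 3 at an unadjusted p under 0.05, beside 2.54% of all genes, and 0 at 24 h, with 5, beside 2.44%. At 48 h it called SOX3 and ZIC2, 2 of 9 beside 3.77%, both higher. The median of the 9 differences was 0.54, 0.99 and 0.59 at 12, 24 and 48 h, against 0.11, 0.20 and 0.13 over all genes.

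For SOX3 the difference between the changes at 48 h was 2.17 (95% confidence interval 1.14 to 3.19, adjusted p = 0.00132), from 60.2 and 54.4 TPM in BLSE + IWR1 and 16.7 and 17.5 TPM in BLSE. With a pseudocount of 0.1 its adjusted p was 0.0985, and compared directly the routes differed by 1.69 (adjusted p = 3.34e-04), under 4-fold. ZIC2 was at 32.6 and 56.0 TPM in BLSE + IWR1 and 3.62 and 2.43 TPM in BLSE at that time, a difference of 2.99 (1.26 to 4.73, adjusted p = 0.00789). The ZIC2 result crossed the threshold with a pseudocount of 0.1 (adjusted p = 0.0137), median-ratio scaling (0.011), no filter (0.0162) and no intensity trend (0.0143). It also did so when a library was left out, with adjusted p of 0.0245 and 0.0202 without DK20FA replicate 1 or 2, 0.0153 and 0.0354 without PESFA replicate 1 or 2, 0.0143 and 0.0366 without BLSE 48 h replicate 1 or 2, and 0.0415 without BLSE + IWR1 48 h replicate 2. In these 7 fits the differences ranged from 2.61 to 3.21, and the count of called genes at 48 h was then 1. POU3F2 also differed between the routes, by 1.78 at 24 h (adjusted p = 1.33e-04) and 1.67 at 48 h (adjusted p = 1.93e-04), both under 4-fold. With fits of only the libraries compared these adjusted p were 0.0403 and 0.0262, and with a pseudocount of 0.1 that at 48 h was 0.0429. ZIC5 had a difference of 2.05 at 24 h (adjusted p = 0.0139), above the threshold. Without reference to the cjESCs, which differ between the routes, ZIC5 differed directly by 2.25, 3.135 and 2.07 at 12, 24 and 48 h. The adjusted p were 1.15e-04, 5.62e-07 and 2.25e-04. ZIC2 at 48 h differed directly by 3.46 (adjusted p = 2.57e-05), so both results depend on the cjESC reference. ZIC1, listed at 0 in both libraries of BLSE at 12 and 48 h and of BLSE + IWR1 at 24 h, was lower relative to its cjESCs with IWR1 at 12 h (adjusted p = 9.61e-08), 24 h (1.39e-08) and 48 h (5.04e-08), beside the fibroblast genes described above. Compared directly, the routes differed in ZIC1 by 0.0945, -0.17 and 0.0882 at these times (adjusted p = 0.846, 0.693 and 0.821). DK20FA cjESCs had 0 and 0.38 TPM of ZIC1, so a fall in BLSE could hardly be seen, and the starting cells enter this result.

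**Figure D3:**
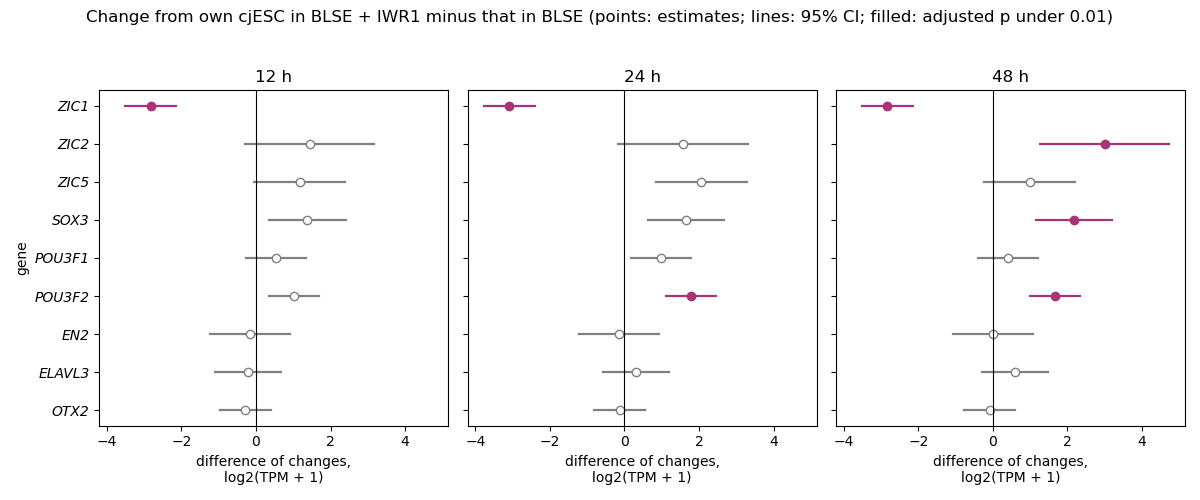
Difference between the change from own cjESCs in BLSE + IWR1 and that in BLSE, on the log2(TPM + 1) scale (horizontal axis), for the 9 genes (vertical axis) at 12, 24 and 48 h, with 95% confidence intervals as lines and filled points for an adjusted p under 0.01. SOX3, ZIC2 and POU3F2 lie to the right of 0 at 48 h, and ZIC1, which only PESFA cjESCs and Pre had above 1 TPM, lies to its left at each time.

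Other genes with a place in this comparison moved alongside, by lists that do not include the 9. ZIC4 was listed at 0 in every library. SOX2 fell to 9.36 and 10.6 TPM in BLSE at 24 h and stood at 159.8 and 187 TPM in BLSE + IWR1 (3.74, adjusted p = 9.37e-09). Of 7 neural progenitor genes tested, SOX2 and DLL1 were called higher at 24 and at 48 h. Of 7 primed pluripotency genes tested, 5 had an adjusted p under 0.01 at 24 h, all higher with IWR1, and NANOG was the 1 gene called at 48 h.

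The remaining lists give the setting at 48 h. Mesoderm genes were called higher in the change with IWR1 than in that of BLSE in 4 of 7 (TBXT, EOMES, HAND1 and MIXL1) and lower in 1 (FOXF1), with a median difference of 2.7. The same 4 were called lower in PESFA than in DK20FA cjESCs, so the starting cells enter this change. Compared directly at 48 h, BLSE + IWR1 had EOMES higher and FOXF1 and LEF1 lower than BLSE, 3 of 7 called, with a median of -0.57. Genes of the neural plate and brain gave 0 calls of 9 tested by limma, with 2 at an unadjusted p under 0.05, and those of neuronal differentiation 0 of 3, with 1. For the neural crest the count was 0 of 4, with 2, for PGC genes 0 of 6, with 3, and for gonadal somatic genes 0 of 2, with 1. Fibroblast genes gave 5 of 5, all lower, with a median of -4.30, and here too the cjESCs enter, as 4 of them were higher in PESFA. The direct comparison called 2 of 5 lower, COL1A2 and DCN, with a median of -0.88. For the direct comparison the share of all genes called was not counted, so its counts of mesoderm and fibroblast genes stand without one. The median difference was 1.22 for neural progenitor genes and 1.1 for primed pluripotency genes.

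BMS493 was compared with IWR1 alone to ask what blocking retinoic acid receptors adds. With all libraries, EN2 at 96 h was the 1 gene that passed the threshold, higher with BMS493. Limma called 0 of 9 at 12 h, with 0 at an unadjusted p under 0.05, beside 0% of all genes, of which 1067 had such a p. The count was 0 at 24 h, with 1, beside 0.00893%, and 0 at 48 h, with 3, beside 0.241%. At 96 h 1 was called, EN2, beside 0.0357%. EN2 stood at 1.32 and 3.78 TPM without BMS493 and 27 and 13.5 TPM with it (2.60, interval 1.84 to 3.36, adjusted p = 1.61e-04). The groups did not overlap, but the call was lost without BLSE + IWR1 96 h replicate 1 (2.08, adjusted p = 0.0103) or BLSE + IWR1 + BMS493 96 h replicate 1 (2.13, adjusted p = 0.0221). ZIC2 at 48 h differed by -0.56 (adjusted p = 0.601) with all libraries and by -2.67 without BLSE + IWR1 + BMS493 48 h replicate 1 (adjusted p = 6.85e-05), which made the count at 48 h 1. CYP26A1, the retinoic acid-degrading enzyme that the acid itself induces, was at 60.6 and 52.3 TPM at 24 h with IWR1 alone and 23.4 and 24.4 TPM with BMS493 (-1.20, adjusted p = 0.306).

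The effect of SOX17 was read from SOX17 + BLSE against BLSE. EN2 was the gene called, and with all libraries the ZIC genes and SOX3 did not pass the threshold. Limma called 0 of 9 at 12 h, with 1 at an unadjusted p under 0.05, beside 0.161% of all genes, and 0 at 24 h, with 1, beside 0.518%. At 48 h EN2, higher, was the 1 gene called, beside 2.02%, at 5.25 and 11.3 TPM against a listed 0 in both BLSE libraries (adjusted p = 4.14e-08). The EN2 call, which also needs a mean level above the minimum, was lost without SOX17 + BLSE 48 h replicate 2. POU3F2 was lower at 48 h, 1.67 and 1.09 against 3.42 and 2.78 TPM (-0.79, adjusted p = 0.00997), and this was lost without any of the 4 libraries, with adjusted p from 0.0144 to 0.146. At 96 h, where the SOX17 cells were sorted for tdTomato and the BLSE cells were not, limma called 0 of 9, with 2 at an unadjusted p under 0.05, beside 8.68%. ELAVL3 was higher then, 2.11 and 1.82 against 0.26 and 0.08 TPM (1.34, adjusted p = 3.33e-04). EN2 was higher as well, by 1.67 (adjusted p = 2.75e-04), which was lost without BLSE 96 h replicate 1 (0.97, adjusted p = 0.0544) or SOX17 + BLSE 96 h replicate 2 (1.02, adjusted p = 0.0446), and called without SOX17 + BLSE 96 h replicate 1. SOX3 differed by 0.15 (adjusted p = 0.739), or by 1.11 without SOX17 + BLSE 96 h replicate 2 (adjusted p = 0.00678).

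BMP4 beside SOX17, read from SOX17 + BLSE against SOX17 + LSE, came with lower ELAVL3 from 24 h on. Limma called 0 of 9 at 12 h, with 1 at an unadjusted p under 0.05, beside 0.0893% of all genes. At 24 h ELAVL3 was called lower, 1 of 9 beside 0.214%, at 48 h ELAVL3 and ZIC2, 2 of 9 beside 1.02%, and at 96 h ELAVL3 and SOX3, 2 of 9 beside 0.768%. ELAVL3 stood at 0.51 and 0.83 TPM with BMP4 and 7.23 and 11.2 TPM without it at 48 h (-2.59, adjusted p = 8.40e-08). At 96 h it was at 2.11 and 1.82 TPM with and 21.8 and 14.6 TPM without BMP4 (-2.67, adjusted p = 7.73e-08). The libraries with BMP4 lay below those without it at each of these times. The difference at 24 h (-2.02, adjusted p = 3.10e-05) lies close to the 4-fold criterion, and the call was lost without SOX17 + BLSE 24 h replicate 1 or SOX17 + LSE 24 h replicate 2, and with median-ratio scaling or quantile normalization.

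ZIC2 at 48 h was at 12.2 and 10.3 TPM with BMP4 and 79.7 and 74.1 TPM without it (-2.67, adjusted p = 0.0017). Without any of these 4 libraries the difference ranged from -2.79 to -2.56, with adjusted p from 0.0156 to 0.0252, so that the count at 48 h was 1. SOX3 changed sides with time. It was higher with BMP4 at 48 h, 20.9 and 25.5 against 5.18 and 9.59 TPM (1.57, adjusted p = 0.00179), and lower at 96 h, 2.79 and 0 against 6.19 and 9.63 TPM (-2.17, adjusted p = 3.98e-05). The difference at 48 h was lost without SOX17 + BLSE 48 h replicate 1 (adjusted p = 0.0113) or 2 (0.0353) or SOX17 + LSE 48 h replicate 1 (0.0863), and that at 96 h without SOX17 + BLSE 96 h replicate 2 (-1.21, adjusted p = 0.0209). POU3F2 was higher with BMP4 at 48 h (0.90, adjusted p = 0.00655), which was lost without any of the 4 libraries, with adjusted p from 0.0108 to 0.137. POU3F1 was lower with BMP4 at 96 h, 0.35 and 0.16 against 2.24 and 2.39 TPM (-1.41, adjusted p = 5.23e-04), and this was lost without SOX17 + BLSE 96 h replicate 2 (0.0146) or SOX17 + LSE 96 h replicate 2 (0.0108). The count at 96 h was 1 without SOX17 + BLSE 96 h replicate 2 or SOX17 + LSE 96 h replicate 2, and 3 without SOX17 + BLSE 96 h replicate 1, where EN2 was also higher with BMP4 (2.01, adjusted p = 0.00175). OTX2 at 48 h differed by -0.69 (adjusted p = 0.0521), or by -1.17 without SOX17 + LSE 48 h replicate 2 (adjusted p = 0.00267).

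Among themselves the 9 genes followed several courses over the 27 condition means of log2(TPM + 1), as described by Pearson's r. The means share lines, starting cells and times and are not independent, so no p is given. ZIC2 and ZIC5 ran closest together (r = 0.88), then ZIC2 and SOX3 (0.82) and ZIC5 and SOX3 (0.79). POU3F1 and ELAVL3 were both highest at xrOvary day 20 (0.68), and SOX3 and POU3F2 the early rise on the PESFA route (0.64). EN2 ran opposite to SOX3 (-0.53).

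Over 10877 genes with a symbol that passed the filter, the genes most like each of the 9 over these 27 means were the following. For ZIC2 they were PGBD5 (r = 0.947), SPRY2 (0.946) and SOX10 (0.941), and for ZIC5 GADL1 (0.950), SOX2 (0.945) and FRAS1 (0.945). ZIC1 had AGTR2 (0.995), TBX15 (0.992) and PRRX1 (0.990), each highest in PESFA cjESCs. For SOX3 they were CDH1 (0.956), FKBP4 (0.946) and AKIP1 (0.945), and for POU3F2 MEPE (0.934), SKOR1 (0.932) and GFI1B (0.926). Likeness was weaker for the remaining genes. EN2 had IL6ST (0.848), APH1A (0.836) and NTF3 (0.820), ELAVL3 had SLC26A5 (0.894), PPM1J (0.868) and GLI1 (0.861), OTX2 had LEXM (0.802), SAMD14 (0.788) and PNMA5 (0.773), and POU3F1 had ZP3 (0.746), ST13 (0.739) and PRIMA1 (0.724).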

How the data were processed

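RNA from 54 libraries, 27 conditions with 2 replicates each, was used. The authors prepared directional poly(A) libraries, aligned the reads with STAR, estimated abundances with RSEM and deposited TPM for 14812 genes, which sum to between 790300 and 839203 per library. TPM hold no read totals, so depth and the precision it gives are unknown.

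With R 4.3.3 and limma 3.58.1, a model of the 54 libraries with 27 condition means (27 residual degrees of freedom) was fitted to the log2(TPM + 1) of the 11197 genes that reached 1.5 in 1 or more libraries, and the prior variance followed the mean level of a gene. In all, 41 contrasts were tested two-sided, 25 of them against the cjESCs of the same line, with Benjamini-Hochberg adjustment over the 11197 genes and none across contrasts. The contrasts against the same cjESCs share those libraries. An exact permutation test of 2 libraries against 2 cannot give a p below 0.33 and was not used. The BLSE + IWR1 and BLSE routes were not compared at 96 h, because only the cells with IWR1 were sorted.

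Named genes are the 9 members, the genes of 11 marker lists and, for each member, the 3 genes with the highest Pearson correlation over the 27 condition means. The members and lists were chosen with earlier results of these data known. Of the gene IDs, 14682 matched a RefSeq table of a later assembly, calJac240_pri, which was used for names and neighbours alone. The model was tested on simulated data. As alternatives, the libraries were scaled by median ratios or by quantiles, the pseudocount was set to 0.1, the filter was dropped, the prior variance was kept free of the mean level, a block for the replicate number was added, the fit was limited to the libraries of a contrast, each library was left out in turn and, for IWR1, the routes were compared directly.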

Additional observations from a re-analysis of the deposited data

Results flagged for a closer look

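The change from the cjESCs of the same line differed between BLSE + IWR1 and BLSE, tested as a difference between contrasts with limma, for 1 of the 9 genes at 12 h, 2 at 24 h and 4 at 48 h at an adjusted p under 0.01, beside 10.8%, 10.3% and 17% of all genes. SOX3 at 48 h differed by 2.17 on the log2(TPM + 1) scale (adjusted p = 0.00132), higher with IWR1, and ZIC2 at 48 h by 2.99 (adjusted p = 0.00789). POU3F2 differed by 1.78 at 24 h (adjusted p = 1.33e-04) and by 1.67 at 48 h (adjusted p = 1.93e-04). With a pseudocount of 0.1 the adjusted p at 48 h were 0.0985 for SOX3, 0.0137 for ZIC2 and 0.0429 for POU3F2, and with fits of only the libraries compared those of POU3F2 were 0.0403 at 24 h and 0.0262 at 48 h.

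ZIC1 differed the other way, by -2.82 at 12 h (adjusted p = 9.61e-08), -3.09 at 24 h (adjusted p = 1.39e-08) and -2.83 at 48 h (adjusted p = 5.04e-08). These ZIC1 values depend on the pseudocount, because each includes a condition listed at 0 TPM in both libraries. Compared directly with limma, without the cjESCs, the routes differed in ZIC1 by 0.0945, -0.17 and 0.0882 at these times (adjusted p = 0.846, 0.693 and 0.821). The starting cjESCs thus enter the ZIC1 result, at 0 and 0.38 TPM in DK20FA and 8.69 and 7.11 TPM in PESFA. ZIC1 also passed the filter through PESFA cjESCs and Pre alone. Medium, transgenes and pre-treatment differ between the routes and cannot be told apart from IWR1.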

How the results depend on the processing

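Counts are of the 9 genes called. With a pseudocount of 0.1, the count against the cjESCs of the same line was 31 (61 with a pseudocount of 1) and those between the cjESCs, for SOX17, BMS493 and the IWR1 change were 0, and for BMP4 3. By comparison that setting gave 1 in BLSE at 12 h, BLSE + IWR1 at 12, 24 and 48 h, with BMS493 at 12 and 24 h, each xrOvary day and BMP4 at 48 and 96 h. It gave 2 with BMS493 at 48 h and at day 6, 3 in BLSE + IWR1 and with BMS493 at 96 h, and 0 for SOX17 at 48 h, BMS493 at 96 h and the IWR1 change at 48 h. Genes at 0 have a lower mean level on that scale by its construction.

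In fits of only the libraries compared, which have fewer degrees of freedom, 39 were called against the cjESCs of the same line and 0 between the cjESCs and for SOX17, BMP4 and BMS493. The count was 1 in BLSE at 48 h, and it was 0 in BLSE and SOX17 + BLSE at 24 h, in BLSE + IWR1 and with BMS493 at 12, 24 and 48 h, for SOX17 at 48 h, for BMP4 at 24, 48 and 96 h and for BMS493 at 96 h. Over all genes these fits made 8031 calls in 41 comparisons against 14098, with 14115 at the same fold and level but an unadjusted p under 0.05.

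Median-ratio scaling and quantile normalization each gave 2 in SOX17 + BLSE at 24 h and in SOX17 + LSE at 96 h, and 0 for BMP4 at 24 h. The count for the IWR1 change in all, and at 48 h, was 1 with median-ratio scaling, with no filter and with no intensity trend. The cause was not tested. In the direct difference between the routes, the genes called changed. They were ZIC5 at each time and ZIC2 at 48 h, whereas SOX3 at 48 h, at 1.69 (adjusted p = 3.34e-04), was under 4-fold and no longer called. The share of all genes called in the direct comparisons was not counted, so these calls cannot be set against it. The difference of ZIC1 was then 0.0945 at 12 h and 0.0882 at 48 h (adjusted p = 0.846 and 0.821), reversed in sign but not different from 0, and -0.17 at 24 h (0.693), since the PESFA cjESCs no longer enter. Median-ratio scaling moved the median of all genes by over 0.1 in 13 of 41 comparisons (-0.240 to 0.0838), quantile normalization in 7 (-0.202 to 0.272) and no filter in 3.

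The replicate number as a block gave 2 in SOX17 + BLSE at 24 h and changed no other count by over 1.5 times. Same-numbered replicates deviated together across genes with r from -0.0917 to 0.289 in 41 comparisons, over 0.1 in 8, and the labels do not say that they share a day.

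Leaving out a library, where the lone library left is assumed to vary like the other conditions, gave counts of 58 to 63 against the cjESCs of the same line, 1 to 1 between the cjESCs, 0 to 2 for SOX17, 4 to 6 for BMP4, 0 to 2 for BMS493 and 1 to 2 for the IWR1 change. By comparison the range was 0 to 1 in BLSE at 12 h, in SOX17 + BLSE at 24 h, for SOX17 at 48 and 96 h, for BMP4 at 24 h and for BMS493 at 48 and 96 h. It was 1 to 2 in SOX17 + LSE at 96 h, in BLSE + IWR1 and with BMS493 at 12 h and for the IWR1 change at 48 h. It was 2 to 5 with BMS493 at 48 h, 1 to 1 for BMP4 at 48 h and 1 to 3 for BMP4 at 96 h. For single genes, leaving out a library took 63 tests across the threshold to the weaker side and 8 to the stronger, and reversed none.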

Other observations

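Some genes of the neural lists were highest in xrOvary cells. FABP7, a fatty acid-binding protein of radial glia, stood at 500 and 477 TPM at day 20, and HESX1, a homeobox gene of the anterior neural plate and pituitary, at 15.0 and 14.5 TPM. The mean of HESX1 was higher at day 40, at 17.4 TPM against 14.7 TPM at day 20. Neither FABP7 nor HESX1 came with SOX1 or HES5 at 1 TPM or more.

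With 2 libraries per condition and no read totals, low levels such as those of OTX2 and POU3F1 cannot be bounded by depth, and every condition comes from 1 cell line.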
